A study of Mus musculus with 9 samples.

Results

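The Max network is a set of transcription factors that share the dimerization partner Max. Its 10 genes Myc, Mycn, Mycl, Max, Mxd1, Mxd3, Mxd4, Mxi1, Mnt and Mga were followed through all probe sets that the platform annotation gives to 1 of them alone, 22 of the 22690 probe sets on the array. Of these 22, 15 passed the filter on dim signals and were tested, and they cover 9 of the 10 genes. Mxd1 has 1 probe set, which did not pass.

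RNA was measured on 9 Affymetrix mouse arrays, 3 for each of 3 kinds of cell. Granulocyte-macrophage progenitors (GMP), marrow cells that normally give rise to granulocytes and macrophages, came from normal bone marrow. L-GMP came from leukemic bone marrow, in a study of the MLL-AF9 fusion gene. The third kind, called L-GMP-derived here, carries titles that are codes, and its source label reads L-GMP. It was taken by elimination to be the cells grown in culture from L-GMP that the design mentions, and every statement on it is limited by that reading. The sources used here do not give mouse strain, age, sex, culture conditions or pooling, and do not say whether arrays of 1 group stem from different animals or cultures. The p-values therefore reflect only array-to-array spread, possibly technical.

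Myc proteins bind DNA only as dimers with Max, preferably at the E-box CACGTG, and switch on genes of growth, ribosome production and metabolism. The Mxd proteins (Mxd1, Mxd3, Mxd4 and Mxi1) and Mnt compete for Max and the same sites and bring in the Sin3 and histone deacetylase repressor complex, and Mga joins Max in a Polycomb complex. Several Mxd genes are known to be switched on as blood cells stop dividing and mature, while Myc is switched off.

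The arrays were alike in brightness, with medians from 157 to 168. Within L-GMP-derived cells, replicate 1 was the least alike, correlating at 0.958 and 0.964 with the other two, which correlated at 0.989 with each other. All 12 GMP markers had a signal above the filter on at least 1 array, and their summed signal ran from 44939.5 to 46649 in GMP, from 36998 to 43514 in L-GMP and from 29349 to 34879 in L-GMP-derived cells. In L-GMP-derived cells against GMP 4 of the 12 were lower, 1 was higher (Csf2ra, 1.18-fold) and 7 were not called. Of all tested genes, 10.7% were lower and 13.4% higher. The lower ones were Mpo (11.9-fold, 1442 ± 1853 against 9366 ± 129, SD, n = 3), Csf1r (535 ± 247 against 5767 ± 507), Cd34 (at least 9.05-fold, at the signal floor on every L-GMP-derived array) and Kit (8.89-fold). In L-GMP against GMP 3 were lower (Cebpa 3.47-fold, Cd34 1.95-fold, Ctsg 1.36-fold), 3 higher (Fcgr2b 1.73-fold, Csf2ra and Fcgr3 1.54-fold each) and 6 not called. The shares of all tested genes were 12.8% lower and 13.1% higher. The summed signal of 12 neutrophil maturation markers, 3 of them below the filter on every array, ran from 9871 to 25784 in GMP, from 21369 to 45620 in L-GMP and from 1067 to 8934.5 in L-GMP-derived cells. That of 11 mast cell, eosinophil and basophil markers, 2 of them below the filter throughout, ran from 2959 to 3011 in GMP, from 5773 to 8107 in L-GMP and from 848 to 1190.3 in L-GMP-derived cells. For beta-actin, the 3' over 5' signal ratio, which reads RNA quality, ran from 4.87 to 5.56 in L-GMP, below GMP (6.99 to 8.12) and L-GMP-derived cells (6.93 to 7.18), while that of Gapdh overlapped between the groups. The part of these differences in the results below was not tested. In RNA from whole samples, fewer cells of a type and less RNA per cell cannot be told apart.

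Between normal and leukemic progenitors Myc fell and Mycn rose, and in L-GMP-derived cells Myc stood near the GMP level again while Mycn stood between. Mxd4 and Mxi1, which encode repressors of the network, were also higher in L-GMP than in GMP. Max, the shared partner, passed no test in any comparison. The signals of the brightest tested probe set of each gene are plotted by array.

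**Figure D1:**
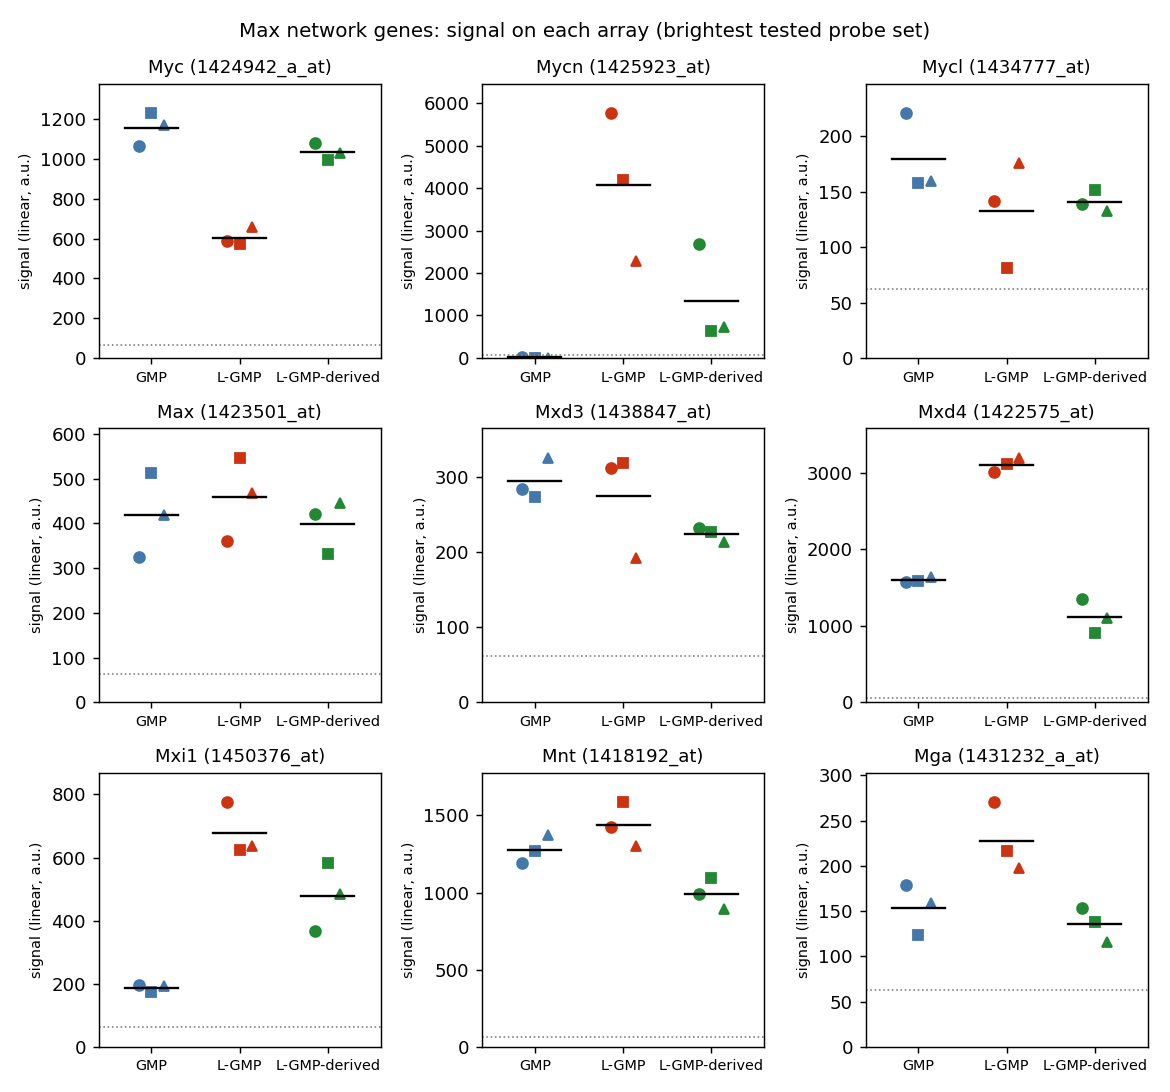
Signal (linear scale, arbitrary units) of the brightest tested probe set of 9 Max network genes on each of 9 arrays. Circles, squares and triangles are replicates 1, 2 and 3 of each group, horizontal bars are group means and the dotted line is the signal floor of 62.4. Myc is lowest in L-GMP, Mycn lies below the floor on the 3 GMP arrays, and Mxd4 is highest in L-GMP.

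Myc, the family member found in most dividing cells, has 1 probe set, 1424942_a_at, and all values for Myc rest on it. It read 1064, 1232 and 1169.8 on the GMP arrays, 587, 572 and 657 on the L-GMP arrays and 1079.7, 996 and 1028 on the L-GMP-derived arrays. All 3 L-GMP arrays lay below all 6 others, and the other groups overlapped. The beta-actin ratio set the L-GMP arrays apart in the same way, and its part in the Myc result was not tested. Myc was 1.91-fold lower in L-GMP than in GMP (605 ± 45.1 against 1155 ± 84.8, SD, n = 3; log2 fold change -0.93 ± 0.11 SE, limma adjusted p = 1.43e-04). It was 1.71-fold higher in L-GMP-derived cells than in L-GMP (1034 ± 42.5; log2 fold change 0.78 ± 0.11 SE, adjusted p = 4.37e-04). Between L-GMP-derived cells and GMP the log2 difference was -0.16, with a 95% interval from -0.40 to 0.08 (adjusted p = 0.323).

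Mycn, best known from embryonic and neural tissues and from blood stem cells, has 3 probe sets, and only 1425923_at rose above the filter. That probe set read 30.3, 5.85 and 3.58 in GMP, 5772, 4182 and 2286 in L-GMP and 2681, 630 and 726 in L-GMP-derived cells. All GMP arrays lay below the signal floor of 62.4, and L-GMP-derived replicate 1 lay within the range of L-GMP. On the fitted scale Mycn was at least 61.0-fold higher in L-GMP than in GMP (log2 fold change 5.93 ± 0.49 SE, adjusted p = 1.63e-05). In L-GMP-derived cells it was at least 17.1-fold higher than in GMP (4.10 ± 0.49 SE, adjusted p = 2.02e-04). Both folds are lower bounds that depend on the floor. Their standard errors and p-values depend on it too, since it sets the log2 SD of GMP to 0. The probe set passed the filter through the 6 leukemic arrays alone. With the floor at the 10th percentile of all signals they were at least 132 and 37.2, and with it at the 40th percentile at least 34.2 and 9.60.

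Mycn was 3.56-fold lower in L-GMP-derived cells than in L-GMP (1346 ± 1158 against 4080.1 ± 1745, SD, n = 3; log2 fold change -1.83 ± 0.49 SE, adjusted p = 0.0166). The groups overlapped, and the call was lost on leaving out L-GMP replicate 1 (adjusted p = 0.0631), L-GMP replicate 2 (0.0564), L-GMP-derived replicate 2 (0.0642) or L-GMP-derived replicate 3 (0.0671), with a range of 3.82e-05 to 0.0888 over all alternatives. Fitting only the 6 arrays compared also lost the call (limma adjusted p = 0.0662). The main fit takes 1 spread from all 9 arrays. For Mycn the log2 SD was 0 in GMP, where the floor sets it, 0.68 in L-GMP and 1.15 in L-GMP-derived cells. Without L-GMP-derived replicate 1 the fold was 5.63 (adjusted p = 1.34e-04), and against GMP it was at least 10.8 in place of 17.1.

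The other Mycn probe sets did not follow this pattern. Probe set 1417155_at read -3.96 to 42.0 over the 9 arrays, below the floor on all of them. Probe set 1425922_a_at read 41.6 to 67.4, below the floor on 7 arrays. The sources used here do not place these probe sets in the transcript, so the rise of Mycn rests on 1 probe set, as the plot of genes with several probe sets shows.

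**Figure D2:**
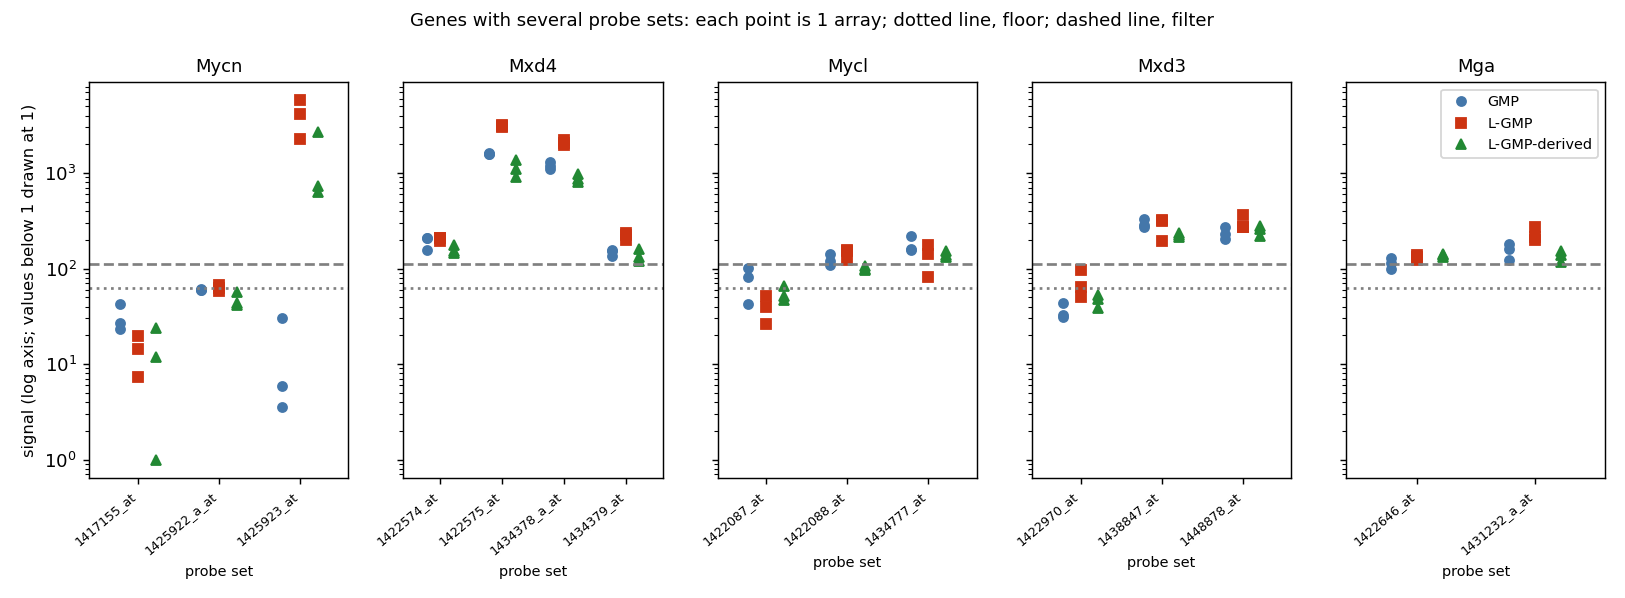
Signal (log axis) of every probe set of 5 Max network genes, with 1 point for each array and values below 1 drawn at 1. The dotted line is the floor of 62.4 and the dashed line the filter of 111. For Mycn, 1 of 3 probe sets rises in L-GMP and L-GMP-derived cells and the other two stay near or below the floor, while for Mxd4 all 4 probe sets are higher on average in L-GMP than in L-GMP-derived cells.

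The Mycn promoter is shown because Mycn had the greatest change of the network, with matches to the E2F letters TTTGGCGC or TTTCGCGC, searched on both strands, in capitals. These are the 250 bases before the start of the gene, from RefSeq (GRCm38.p6, chr12:12941837-12942086, minus strand).
Mycn: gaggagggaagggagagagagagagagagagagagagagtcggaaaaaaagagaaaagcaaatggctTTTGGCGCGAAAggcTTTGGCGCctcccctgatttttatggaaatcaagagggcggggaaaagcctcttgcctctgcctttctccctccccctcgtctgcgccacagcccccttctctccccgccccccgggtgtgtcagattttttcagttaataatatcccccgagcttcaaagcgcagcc
Matches began 183, 179 and 168 bases before the start, the middle one being on the opposite strand and overlapping the first. Such a match was found in the 300 base windows (250 before to 50 after a start) of 0.929% of all genes, and in the network in Mycn alone of the 9 genes with a window. Mycn had no E-box in this window. A match is a description of letters, not evidence of binding.

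Mycl, the third family member, stayed dim. Its probe set 1422088_at read 108, 141 and 119 in GMP, 151, 155 and 121 in L-GMP and 107, 95.8 and 97.8 in L-GMP-derived cells. The L-GMP-derived arrays lay below both other groups, and the difference from L-GMP was 1.41-fold (log2 fold change -0.50 ± 0.15 SE, adjusted p = 0.0315). That call was lost on leaving out L-GMP replicate 1 (adjusted p = 0.0913), L-GMP replicate 2 (0.109), L-GMP-derived replicate 2 (0.0863) or L-GMP-derived replicate 3 (0.0842; 0.00705 to 0.109 over all alternatives). Probe set 1434777_at read 80.8 to 221 over the 9 arrays and passed no test (adjusted p = 0.196 for L-GMP against GMP, 0.380 for L-GMP-derived cells against GMP and 0.701 for L-GMP-derived cells against L-GMP). Probe set 1422087_at, not tested, read 26.2 to 102.

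Max, the partner that Myc, Mxd, Mnt and Mga proteins share, read 324, 513 and 418 in GMP, 360, 547 and 467 in L-GMP and 420, 331 and 446 in L-GMP-derived cells. The 3 groups overlapped throughout. The log2 difference of L-GMP from GMP was 0.13 (95% interval -0.32 to 0.59, adjusted p = 0.683), that of L-GMP-derived cells from GMP -0.06 (-0.51 to 0.40, adjusted p = 0.875) and that of L-GMP-derived cells from L-GMP -0.19 (-0.64 to 0.27, adjusted p = 0.537). These intervals are wide, and the data do not show that Max was equal in the 3 kinds of cell.

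Mxd4, which encodes a repressor that pairs with Max, had its highest group mean in L-GMP and its lowest in L-GMP-derived cells on every probe set. Its brightest probe set 1422575_at read 1568, 1589 and 1632 in GMP, 3003, 3114 and 3199 in L-GMP and 1352, 901 and 1104 in L-GMP-derived cells. The 3 groups did not overlap. The summed mast cell, eosinophil and basophil markers had the same order without overlap. Of their 9 tested genes, 2 were higher in L-GMP than in GMP (Prg2 14.4-fold, Siglecf 2.78-fold), 1 lower (Mcpt8, 2.14-fold) and 6 not called. Of all tested genes, 13.1% were higher and 12.8% lower. The summed neutrophil markers were likewise lowest in L-GMP-derived cells. So were the summed monocyte and macrophage markers (4436 to 4756, against 5595 to 6398 in GMP and 6328 to 7339 in L-GMP). Single genes of that list differed in direction in L-GMP-derived cells against GMP. Of 6 tested, 2 were higher (Adgre1 2.32-fold, Cd68 2.17-fold), 1 lower (Ccr2, 2.80-fold) and 3 not called. The shares of all tested genes there were 13.4% higher and 10.7% lower. The part of any of these lists in the Mxd4 result was not tested. Mxd4 was 1.94-fold higher in L-GMP than in GMP (3105 ± 98.2 against 1596 ± 32.8, SD, n = 3; log2 fold change 0.96 ± 0.13 SE, adjusted p = 3.73e-04) and 2.81-fold lower in L-GMP-derived cells than in L-GMP (1119 ± 226; log2 fold change -1.49 ± 0.13 SE, adjusted p = 2.13e-05). It was also 1.45-fold lower in L-GMP-derived cells than in GMP (log2 fold change -0.53 ± 0.13 SE, adjusted p = 0.0123), a call lost on leaving out GMP replicate 3 (adjusted p = 0.0511; 7.85e-05 to 0.0535 over all alternatives).

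Probe set 1434378_a_at had the same order, with 1105, 1305 and 1189 in GMP, 1955, 2239.8 and 2045 in L-GMP and 970, 810 and 860 in L-GMP-derived cells. It was 1.73-fold higher in L-GMP than in GMP (adjusted p = 4.54e-04), 2.37-fold lower in L-GMP-derived cells than in L-GMP (adjusted p = 2.33e-05) and 1.36-fold lower than in GMP (adjusted p = 0.0130), the last call being lost on leaving out GMP replicate 2 (adjusted p = 0.0650; 2.29e-04 to 0.0710 over all alternatives). The dimmer 1434379_at was 1.50-fold higher in L-GMP than in GMP (adjusted p = 0.0125). That call was lost when replicate number was added to the fit as a block (0.124; 0.00274 to 0.124 over all alternatives). The same probe set was 1.61-fold lower in L-GMP-derived cells than in L-GMP (adjusted p = 0.00442), with means of 147, 220 and 137 in GMP, L-GMP and L-GMP-derived cells. Between L-GMP-derived cells and GMP its arrays overlapped and no difference was called (adjusted p = 0.628). The dim 1422574_at passed no test, with means of 191, 204 and 159. Its difference between L-GMP-derived cells and L-GMP (adjusted p = 0.0799) passed without L-GMP-derived replicate 1 (0.0379) or GMP replicate 1 (0.0469), with a range of 0.00998 to 0.215 over all alternatives.

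The Mxd4 promoter and the bases around the E-boxes of Mnt and Max are shown because Myc and Max dimers and Mxd and Max dimers are known to bind this motif, with the letters CACGTG (the same on both strands) in capitals. For Mxd4 these are the 250 bases before the start (GRCm38.p6, RefSeq, chr5:34187711-34187960, minus strand), for Mnt 26 bases (chr11:74830791-74830816, plus strand) and for Max 26 bases (chr12:76962236-76962261, minus strand).
Mxd4: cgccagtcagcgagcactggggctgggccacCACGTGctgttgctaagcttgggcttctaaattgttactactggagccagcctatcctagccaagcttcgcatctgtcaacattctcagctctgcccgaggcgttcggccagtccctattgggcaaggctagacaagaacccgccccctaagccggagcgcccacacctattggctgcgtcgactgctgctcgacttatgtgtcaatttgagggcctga
Mnt: ccacccaagcCACGTGtgcgcgcgcg
Max: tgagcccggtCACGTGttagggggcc
The E-box began 219 bases before the start in Mxd4, 123 before it in Mnt and 3 before it in Max, where it spans the start. In all, 3 of 9 network genes with a window held an E-box, against 8.09% of all 27025 genes with 1. Among genes with a window, 8 of 32 in the Myc-activated list and 2 of 12 in the Myc-repressed list, both described below, held an E-box. Myc itself had no window among the sequences used. The windows of Mycl, Mxd1, Mxd3, Mga and Mxi1, which has 3 starts in the table, held none.

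Mxi1, another repressor that pairs with Max, read 195, 174 and 194 in GMP, 776, 623 and 636 in L-GMP and 367, 583 and 483 in L-GMP-derived cells on probe set 1450376_at. The 3 groups did not overlap, and both leukemic groups lay above GMP. Mxi1 was 3.60-fold higher in L-GMP than in GMP (678 ± 84.7 against 188 ± 11.9, SD, n = 3; log2 fold change 1.85 ± 0.17 SE, adjusted p = 3.20e-05) and 2.50-fold higher in L-GMP-derived cells than in GMP (478 ± 108; 1.32 ± 0.17 SE, adjusted p = 3.27e-04). It was 1.44-fold lower in L-GMP-derived cells than in L-GMP (-0.52 ± 0.17 SE, adjusted p = 0.0393), a call lost when any array other than L-GMP-derived replicate 2 was left out (adjusted p = 0.0561 to 0.126; 0.0098 to 0.126 over all alternatives). The other probe set of Mxi1, 1425732_a_at, was not tested and read 52.4 to 85.2 on the 9 arrays.

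Of the remaining Mxd genes, Mxd3 passed no test and Mxd1 was too dim to be tested. Mxd3, which in normal cells is known to peak during S phase, read 285, 274 and 327 in GMP, 313, 319 and 192 in L-GMP and 233, 227 and 214 in L-GMP-derived cells on probe set 1438847_at. L-GMP replicate 3 lay well below the other two arrays of its group. Without that array the difference of L-GMP-derived cells passed the threshold, as lower, against GMP (adjusted p = 0.0356 in place of 0.155; 0.0137 to 0.371 over all alternatives) and against L-GMP (0.0209 in place of 0.341; 0.0209 to 0.699 over all alternatives). Its other tested probe set 1448878_at had means of 236, 302 and 253 in GMP, L-GMP and L-GMP-derived cells (adjusted p = 0.141, 0.690 and 0.282 for the 3 comparisons). With array weights it passed, as higher in L-GMP than in GMP (limma adjusted p = 0.0488; 0.0488 to 0.399 over all alternatives). For 1438847_at the log2 difference in that comparison was -0.14, the opposite direction. Probe set 1422970_at, not tested, read 30.9 to 97.6. Mxd1, known to rise as myeloid cells mature, read 38.5 to 92.3 in GMP, 74.9 to 107 in L-GMP and 78.8 to 102 in L-GMP-derived cells, under the filter of 111 on every array.

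Mnt, the widely expressed repressor of the network, read 1194, 1272 and 1372 in GMP, 1425, 1587 and 1299 in L-GMP and 993, 1092 and 893 in L-GMP-derived cells on probe set 1418192_at. The L-GMP-derived arrays lay below all 6 others, and GMP and L-GMP overlapped. Mnt was 1.45-fold lower in L-GMP-derived cells than in L-GMP (992 ± 99.4 against 1437 ± 144, SD, n = 3; log2 fold change -0.53 ± 0.12 SE, adjusted p = 0.00579). Against GMP it was 1.29-fold lower (1279 ± 89.1; adjusted p = 0.0414), a call lost on leaving out GMP replicate 1 (adjusted p = 0.0556), GMP replicate 2 (0.107), GMP replicate 3 (0.154), L-GMP-derived replicate 3 (0.140) or, through the shared spread, L-GMP replicate 1 (0.0542; 7.79e-04 to 0.154 over all alternatives). For L-GMP against GMP the log2 difference was 0.17 (95% interval -0.09 to 0.42, adjusted p = 0.338). Probe set 1418193_at, not tested, read 38.6 to 92.0.

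Mga, which encodes the largest protein of the network, read 179, 124 and 159 in GMP, 270, 216 and 197 in L-GMP and 154, 138 and 116 in L-GMP-derived cells on probe set 1431232_a_at. All L-GMP arrays lay above the other groups. It was 1.49-fold higher in L-GMP than in GMP (228 ± 38.0 against 154 ± 27.9, SD, n = 3; adjusted p = 0.0388), a call lost on leaving out L-GMP replicate 1 (0.134), L-GMP replicate 2 (0.0732), GMP replicate 2 (0.146) or GMP replicate 3 (0.0865), the range over all alternatives being 0.0141 to 0.146. It was 1.67-fold lower in L-GMP-derived cells than in L-GMP (136 ± 18.8; log2 fold change -0.74 ± 0.18 SE, adjusted p = 0.0104). Probe set 1422646_at read 98.6 to 143 over all arrays and passed no test (adjusted p = 0.299, 0.150 and 0.702 for the 3 comparisons), so the probe sets of Mga differ in this respect.

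Counted over the 15 tested probe sets, 6 were higher in L-GMP than in GMP (of Mycn, Mxd4, Mxi1 and Mga) and 1 lower (Myc), where 13.4% of all 14578 tested probe sets were higher and 12.6% lower. In L-GMP-derived cells against GMP 2 were higher (Mycn and Mxi1) and 3 lower (2 of Mxd4 and 1 of Mnt), where 14.0% of all were higher and 10.4% lower. The 2 comparisons share the GMP arrays. In L-GMP-derived cells against L-GMP 1 was higher (Myc) and 8 lower (Mycn, Mycl, 3 of Mxd4, Mxi1, Mnt and Mga), where 16.4% of all were higher and 13.5% lower. This comparison shares the L-GMP arrays with that of L-GMP against GMP, so opposite calls in them are not independent. The median log2 difference of the 15 was 0.22, -0.17 and -0.50 in the 3 comparisons, against -0.00, 0.01 and -0.00 over all tested probe sets. Probe sets of the same gene are not independent, and 4 of the 15 belong to Mxd4. The number called against GMP in L-GMP-derived cells was 3 without GMP replicate 2 and 3 without GMP replicate 3, in place of 5, and without L-GMP-derived replicate 1 the counts were 5 for L-GMP-derived cells against GMP and 9 against L-GMP.

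**Figure D3:**
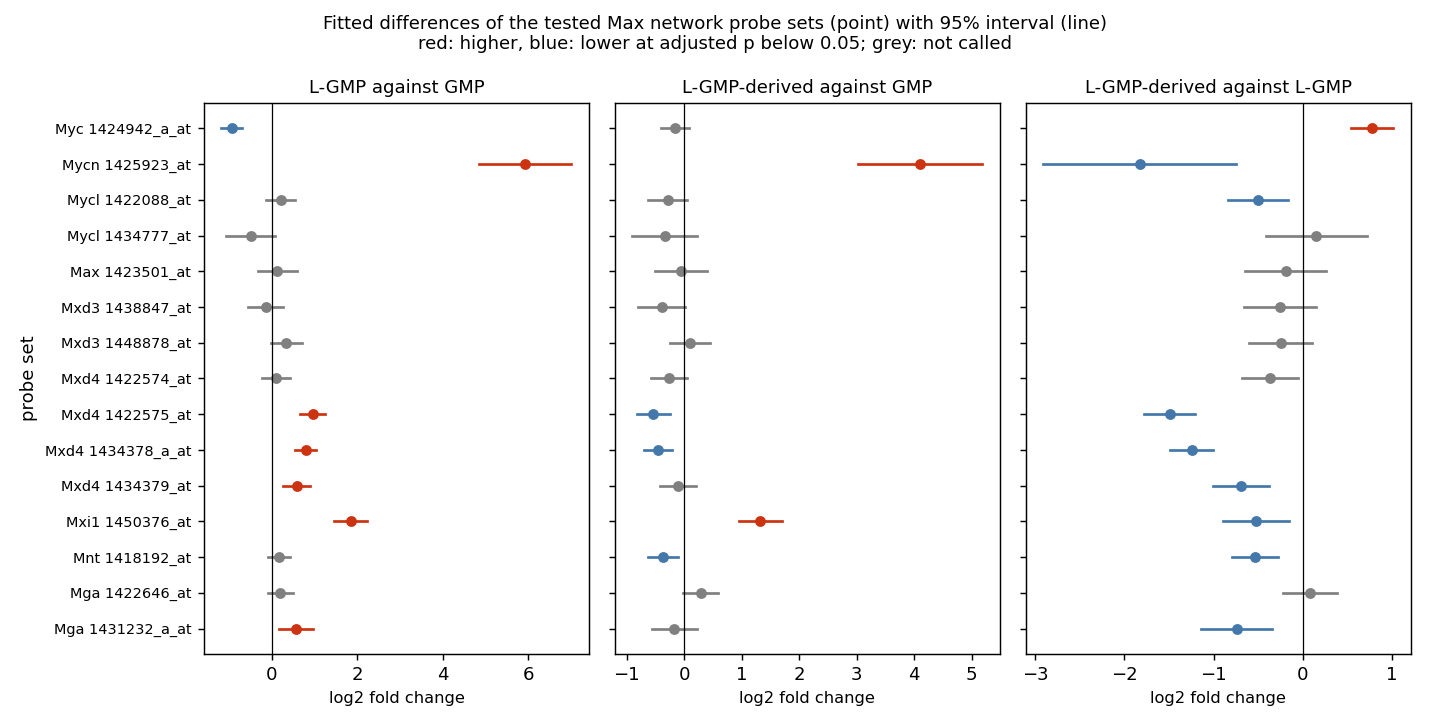
Log2 fold changes (points) with 95% intervals (lines) of the 15 tested Max network probe sets in 3 comparisons, from limma, with a scale of its own in each panel. Red and blue mark probe sets higher and lower at an adjusted p below 0.05, and grey those not called. Mycn and Mxi1 lie to the right of 0 in both comparisons with GMP, and 8 probe sets lie to the left of 0 as called in L-GMP-derived cells against L-GMP.

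Around the network, 40 well known genes that Myc proteins switch on were followed, 36 of them tested with 1 probe set each. In L-GMP against GMP 22 fell and 0 rose (0 also rose at an unadjusted p below 0.05, limma, and 25 fell), where 13.1% of all 8965 tested genes were higher and 12.8% lower. The cyclin gene Ccnd2 was 16.9-fold lower (149 ± 39.0 against 2457 ± 134, SD, n = 3; adjusted p = 5.11e-04), the amino acid transporter gene Slc7a5 2.37-fold lower, and the nucleolar gene Nolc1 1.97-fold lower. The purine synthesis gene Ppat read 313 ± 26.2 against 628 ± 71.2. In L-GMP-derived cells against L-GMP 27 rose and 0 fell (29 and 0 at an unadjusted p below 0.05), where 16.6% of all genes were higher and 14.1% lower. Slc7a5 was 5.66-fold higher (740 ± 145 against 130 ± 22.6), Ccnd2 3.94-fold, the mitochondrial serine enzyme gene Shmt2 3.50-fold and the pyrimidine synthesis gene Cad 2.50-fold. Both comparisons use the same L-GMP arrays, so the fall and the rise are not independent results.

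In L-GMP-derived cells against GMP 10 of the 36 rose and 1 fell, where 13.4% of all genes were higher and 10.7% lower. Shmt2 was 2.65-fold and Slc7a5 2.39-fold higher, the translation regulator gene Eif4ebp1 1.93-fold higher and Ccnd2 4.28-fold lower. This count was 7 without GMP replicate 1 (all higher) in place of 11, and 16 without L-GMP-derived replicate 1. The median log2 difference of the 36 was -0.38 in L-GMP against GMP, 0.16 in L-GMP-derived cells against GMP and 0.59 in L-GMP-derived cells against L-GMP, against -0.01, 0.00 and -0.00 for all tested genes. The list was chosen with results of these data known and is not independent evidence of its direction.

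Of genes that Myc is known to repress, 15 were tested. In L-GMP against GMP 4 rose and 1 fell, against 13.1% and 12.8% of all tested genes. The Cdk inhibitor genes Cdkn2c (4.79-fold) and Cdkn1b (1.69-fold) and the growth factor receptor gene Pdgfrb (1.85-fold) were higher, and the myeloid transcription factor gene Cebpa was 3.47-fold lower. Against L-GMP, L-GMP-derived cells had 4 higher and 6 lower, where the shares of all genes were 16.6% and 14.1%. Cdkn2c was 6.07-fold lower, Pdgfrb 3.97-fold and the stress response gene Ndrg1 2.83-fold, while the Cdk inhibitor gene Cdkn1a was 5.21-fold higher (972 ± 324 against 179 ± 6.96, SD, n = 3). Against GMP they had 2 higher and 4 lower (13.4% and 10.7% of all genes), with Cdkn1a 7.37-fold higher and Ndrg1 3.16-fold lower. The median log2 difference of the 15 was 0.25 in L-GMP against GMP, -0.34 in L-GMP-derived cells against GMP and -0.33 in L-GMP-derived cells against L-GMP.

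**Figure D4:**
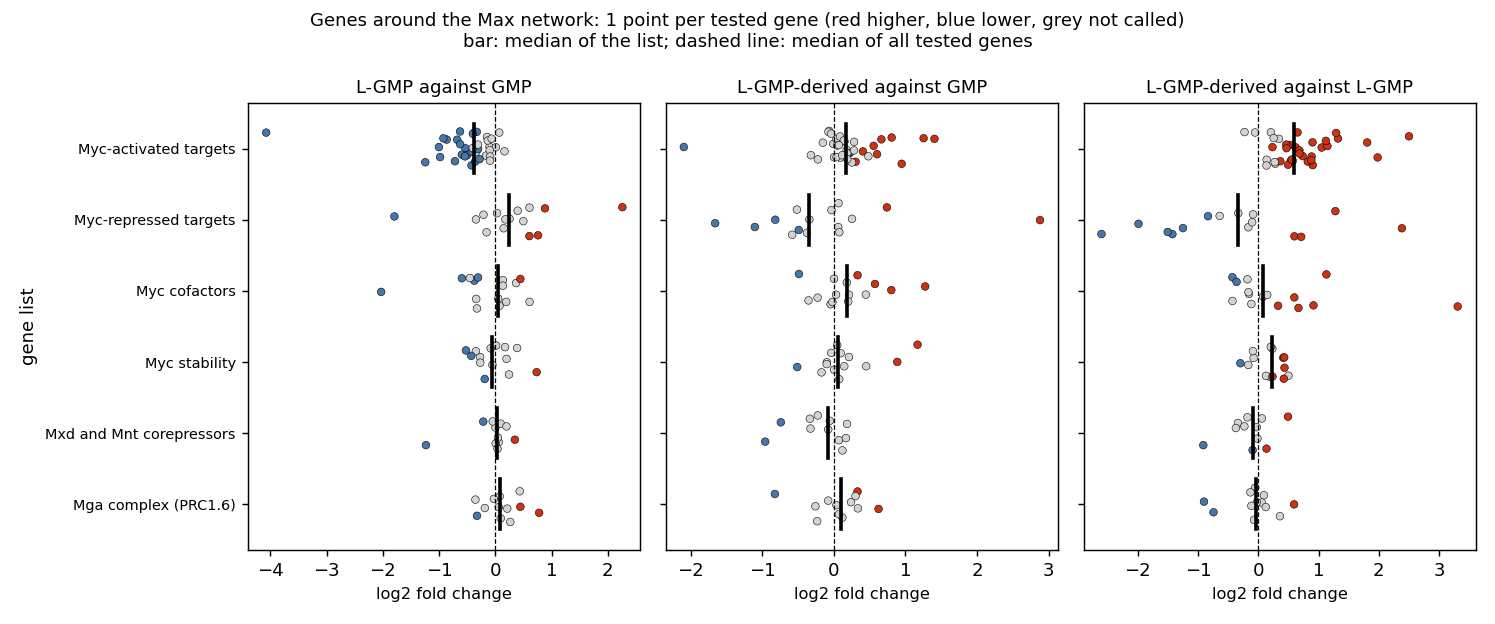
Log2 fold changes of the tested genes of 6 lists around the Max network in 3 comparisons, with 1 point for each gene, red for higher, blue for lower and grey for not called, and points spread vertically only to separate them. Black bars are list medians and the dashed line is the median of all tested genes. Myc-activated targets lie mostly to the left of 0 in L-GMP against GMP and mostly to the right in L-GMP-derived cells against L-GMP.

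Cofactors of Myc numbered 15 tested. In L-GMP against GMP 1 rose and 4 fell (13.1% and 12.8% of all genes), among them the kinase gene Pim1, also a cytokine target (4.09-fold lower, 374 ± 73.3 against 1531 ± 319), and the acetyltransferase gene Kat2a (1.51-fold lower), while Wdr5, which encodes a chromatin adaptor, was 1.36-fold higher. In L-GMP-derived cells against L-GMP 6 rose and 2 fell (16.6% and 14.1% of all genes), with Pim1 9.90-fold higher and the helicase genes Ruvbl2 and Ruvbl1 2.19-fold and 1.89-fold higher. Against GMP 4 rose and 1 fell (13.4% and 10.7% of all genes), with Pim1 2.42-fold, Ruvbl2 1.75-fold and Ruvbl1 1.49-fold higher and the ubiquitin ligase gene Mycbp2 1.40-fold lower. The list's median log2 difference was 0.05 in L-GMP against GMP, 0.18 in L-GMP-derived cells against GMP and 0.08 in L-GMP-derived cells against L-GMP.

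The counts of the lists of Myc stability, corepressors and the Mga complex are a description, to be read against the shares of all genes. Of all tested genes, 13.1% were higher and 12.8% lower in L-GMP against GMP, 13.4% and 10.7% in L-GMP-derived cells against GMP, and 16.6% and 14.1% in L-GMP-derived cells against L-GMP. In that order of comparisons, 14 tested genes that act on the stability of Myc proteins had 1, 2 and 5 higher and 3, 1 and 1 lower, with median log2 differences of -0.07, 0.06 and 0.22. Aurka, a mitotic kinase known to protect the N-Myc protein from degradation, was 1.67-fold higher in L-GMP than in GMP (829 ± 170 against 493 ± 46.4, SD, n = 3) and 2.25-fold higher in L-GMP-derived cells than in GMP (1106 ± 17.8). The mitotic kinase gene Plk1 was 1.85-fold higher in L-GMP-derived cells than in GMP, and Fbxw7, which encodes a ubiquitin ligase subunit that marks Myc proteins for degradation, was 1.42-fold lower (adjusted p = 0.0351). The ubiquitin ligase genes Trim32 and Skp2 were 1.44-fold and 1.35-fold lower in L-GMP than in GMP.

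Among 11 tested corepressor genes that Mxd and Mnt proteins use, 1, 0 and 2 were higher and 2, 2 and 2 lower in the same order (0 and 3 at an unadjusted p below 0.05, limma, in L-GMP-derived cells against GMP), with medians of 0.04, -0.08 and -0.09. Sap30, a subunit of the Sin3 complex, was 2.35-fold lower in L-GMP than in GMP (836 ± 97.7 against 1959 ± 124, SD, n = 3), and Sin3b, a scaffold that Mxd proteins bind, was 1.27-fold higher. The histone demethylase gene Kdm5b was 1.94-fold lower in L-GMP-derived cells than in GMP and 1.88-fold lower than in L-GMP. The 12 tested genes of the Mga complex had 2, 2 and 1 higher and 1, 1 and 2 lower, with medians of 0.09, 0.10 and -0.04. The histone methyltransferase gene Ehmt2 was 1.72-fold higher in L-GMP than in GMP, and Rnf2, which encodes the Polycomb ubiquitin ligase, 1.77-fold lower in L-GMP-derived cells than in GMP. Of the 5 genes of the parallel Mlx branch (medians 0.19, -0.12 and -0.12), Txnip, a glucose-responsive gene, was 2.41-fold higher in L-GMP than in GMP (1925 ± 444 against 786 ± 27.7, SD, n = 3; adjusted p = 0.0258) and 2.61-fold lower in L-GMP-derived cells than in L-GMP (adjusted p = 0.0151), and no other passed a test.

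The genes whose log2 signal followed that of Myc most closely over the 9 arrays were Ppargc1b, a coactivator of mitochondrial genes (Pearson r = 0.988), Atg9b (0.987), the mitochondrial chaperone gene Trap1 (0.987), the Ras regulator gene Nf1 (0.985) and the pseudouridine synthase gene Pus7 (0.984). The most opposite were the kinase gene Prkcb (-0.982), S100a13 (-0.982) and the ectonucleotidase gene Entpd1 (-0.980). For Mycn the closest were Pbxip1 (0.993), Cfp, which encodes the complement factor properdin (0.990), Sgip1 (0.989), the adhesion receptor gene Adgre5 (0.988) and the ATP-gated channel gene P2rx1 (0.987), and the most opposite Luzp1 (-0.991), Rcn1 (-0.986) and the mitochondrial cyclophilin gene Ppif (-0.983). Ppargc1b had group means of 522 in GMP, 37.7 in L-GMP and 417 in L-GMP-derived cells, and Pbxip1 of 331, 1157 and 886. The correlations use floored signals. Means below the floor of 62.4 were those of Ppargc1b and Atg9b (36.75) in L-GMP and of Mycn, Cfp (59.1) and Sgip1 (52.5) in GMP. The part of the floor in the correlations was not tested. These correlations were picked as the most extreme of 8965 genes over arrays that fall into 3 groups, so they describe these arrays only.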

How the data were processed

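Total RNA of sorted mouse blood-forming cells was labelled with biotin and hybridised to 9 one-colour arrays, per the labels. The sample titles part the arrays into 3 groups of 3. They name GMP and L-GMP, while those of the third group are codes, and it was identified by elimination. The deposited values are linear intensity (signal) per probe set, which the authors made with MAS5, version 5, per the submitters' processing notes. No detection calls were used, 0.939% of the 204210 values lay below 0 (so the summary step behind them is unknown, since MAS5 signals are not negative), array scaling was kept as deposited, and 0 columns were left unused. The number of arrays limits the precision.

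Signals were floored at the 25th percentile of all values (62.4) and taken to log2. After 64 control probe sets were removed, 14578 probe sets remained whose signal exceeded 111, the 40th percentile, on 3 or more arrays. limma 3.58.1 in R 4.3.3 (lmFit, eBayes with an intensity trend, 6 residual degrees of freedom) was fitted on all 9 arrays together, and p-values were adjusted by Benjamini-Hochberg over all tested probe sets, with calls below 0.05. Fold changes are on this floored log2 scale, and ± after a log2 fold change is its standard error. A fold against a group at the floor on all its arrays is a lower bound. The procedure was tested on simulated data. Genes in lists and gene counts were represented by their brightest tested probe set.

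All probe sets of the network are given, with, for each list, up to 4 called genes taken in order of their change in a comparison, and the 5 most and 3 least alike genes of Myc and Mycn. The members and lists were chosen with earlier results of these data known. Of 215 list genes, 191 have a probe set. Probe sets were named from the platform annotation, 20393 having 1 symbol. Promoter windows (300 bases) came from RefSeq, GRCm38.p6, with 9 of the 10 network genes matched. Alternatives changed the floor, filter, scaling, variance trend, arrays fitted, array weights, replicate block, probe set suffixes and the arrays left out.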

Additional observations from a re-analysis of the deposited data

How the results depend on the processing

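Of 873 recomputed network fold changes, 812 kept their direction and side of the threshold, 42 lost their call, 10 gained one and 9 changed sign, all 9 in probe sets that passed no test. The signs that changed under a setting other than leaving out an array were those of Mxd4 1422574_at for L-GMP against GMP (-0.063 log2 with the replicate block) and of Mycl 1434777_at for L-GMP-derived cells against L-GMP (-1.45e-04 with the floor at the 40th percentile). Leaving out 1 array gave -0.037 to 0.30 for Max in L-GMP against GMP, -0.23 to 0.11 for Max in L-GMP-derived cells against GMP, -0.26 to 0.10 for Mxd3 1438847_at and -0.034 to 0.18 for Mxd4 1422574_at in L-GMP against GMP, and -0.17 to 0.39 for Mycl 1434777_at in L-GMP-derived cells against L-GMP. The cause was not tested.

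In the order L-GMP against GMP, L-GMP-derived cells against GMP and L-GMP-derived cells against L-GMP, network probe sets called numbered 7, 5 and 9, and leaving out 1 array gave 6 to 7, 3 to 6 and 6 to 9. Myc-activated genes called numbered 22, 11 and 27, with 18 to 24, 7 to 16 and 24 to 28. All probe sets called numbered 3777, 3551 and 4354, with 2475 to 4904, 2306 to 4456 and 3341 to 5478, the lowest of the first 2 ranges being without GMP replicate 3. With array weights L-GMP-derived cells against GMP gave 9 network probe sets, 22 Myc-activated genes and 6912 probe sets. Dropping probe sets with a suffix, which tests fewer by construction, gave 4 network probe sets and 14 Myc-activated genes for L-GMP against GMP, and 2220, 2177 and 2605 probe sets in the 3 comparisons.

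Same-numbered arrays correlated in their deviations at -0.309, -0.133 and -0.270 between L-GMP and L-GMP-derived cells, at 0.170 and -0.129 between L-GMP and GMP (replicates 2 and 3) and at -0.276 and -0.0185 between L-GMP-derived cells and GMP. Only 1 of these pairs was above 0.1, so the numbers were not taken to pair the arrays. Different-numbered arrays ran from -0.185 (L-GMP 3 with L-GMP-derived 2) to 0.300 (L-GMP 1 with L-GMP-derived 2), and a pairing under other numbers was not tested. With the replicate block L-GMP-derived cells against GMP gave 2 network probe sets, 7 Myc-activated genes and 1750 probe sets, and L-GMP against GMP 1916 probe sets. The block also ended the call of Mxd4 1434379_at in L-GMP against GMP (adjusted p = 0.124, limma, with 0.00274 to 0.124 over all alternatives). It gave GMP replicate 1, whose title has no number, a level of its own, so GMP then rested on replicates 2 and 3. Leaving out any single array, GMP replicate 1 among them, kept that Mxd4 call (limma adjusted p at most 0.0483). For L-GMP against GMP it gave at least 2475 probe sets. For Myc-activated genes in L-GMP-derived cells against GMP, leaving out GMP replicate 1 gave 7, as the block did. The cause of the differences was not tested. Members under the filter on every array cannot be ranked against each other.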
